A study of Mus musculus with 2 samples.

Results

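This section describes 4 microRNAs (miRNAs) that are commonly linked to smooth muscle and mesenchyme, mmu-miR-21, mmu-miR-143, mmu-miR-145 and mmu-miR-152, in the developing mouse tongue. They were taken by name from the array's annotation, as 4 of the 1080 miRNAs it carried, with every probe that bears their name. Total RNA came from ICR mouse embryos at stages E10.5 and E11.5 (embryonic days), from the medial mandibular arch, the tissue that gives rise to the tongue primordium. Each stage was 1 pool of 40 embryos on 1 array with 1 colour. No difference between the stages could therefore be tested, and the spread between embryos was not measured. Errors below are over repeated spots of 1 probe on 1 array. They hold spot noise only.

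A miRNA is a short RNA that guides the silencing complex to messenger RNAs, chiefly through its seed, bases 2 to 8 from the 5′ end. The miRNA miR-21 is broadly expressed and is raised in many growing or injured tissues, where Pdcd4 is among the targets it represses. The pair miR-143 and miR-145 is made from 1 precursor transcript, is abundant in differentiated smooth muscle, and is switched on there by serum response factor with myocardin. miR-152 belongs to the miR-148 family, known for repressing the DNA methyltransferase gene Dnmt1. In the RefSeq gene table (GRCm38.p6), Mir21a lies within the span of Vmp1, Mir152 within that of Copz2, and both Mir143 and Mir145a within the noncoding RNA gene Carmn.

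The mature sequences of miR-21 and of the 3 miRNAs with the miR-152 seed are shown because the seed sets which members form a family. They are RefSeq's (GRCm38.p6), 5′ to 3′, with the seed in capitals. miR-21 (RefSeq miR-21a-5p) is on the minus strand at chr11:86584120-86584141. miR-152 (miR-152-3p) is on the plus strand at chr11:96850439-96850459. miR-148a (miR-148a-3p) is on the minus strand at chr6:51269829-51269850, and miR-148b (miR-148b-3p) on the plus strand at chr15:103285185-103285206.
miR-21: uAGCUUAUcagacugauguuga
miR-152: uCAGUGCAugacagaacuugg
miR-148a: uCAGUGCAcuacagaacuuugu
miR-148b: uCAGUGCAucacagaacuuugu

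Among these, miR-21 had a seed of its own. In the RefSeq entries read, only miR-21c shared it, and the array held no miRNA of that name. Array miRNAs outside those entries were not compared, so others may carry this seed. Over its 21 bases miR-152 differed from miR-148a at 3 positions (9, 10 and 20, counted from the 5′ end) and from miR-148b at 2 (10 and 20). Sequences of miR-143 and miR-145 are not shown.

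Each member had 2 probes that differed in length by 1 base. The probes are DNA and complementary to the 3′ part of the miRNA, and those of miR-21 and miR-152 are given 5′ to 3′ with the base held by the longer probe alone in capitals.
miR-21, 20 bases: tcaacatcagtctgataagC
miR-21, 19 bases: tcaacatcagtctgataag
miR-152, 17 bases: ccaagttctgtcatgcA
miR-152, 16 bases: ccaagttctgtcatgc

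The miR-21 probes pair with bases 3 to 22 or 4 to 22 of the miRNA, and the miR-152 probes with bases 5 to 21 or 6 to 21. All 3 mismatches to miR-148a and both to miR-148b lie in the stretch that the 17-base miR-152 probe reads. Cross-reading within this family was not tested. The miR-143 probes had 15 and 16 bases and those of miR-145 had 13 and 14. Each of these 4 probes held 8 G or C bases.

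Signals are processed spot intensities from the scanner files, background-subtracted and on a linear scale. The scanner software flags each spot that is well above background, and a probe with this flag on 50% or more of its spots was taken as detected. By this rule 137 miRNAs (12.7% of 1080) were detected at both stages, 62 (5.74%) at E11.5 only, 7 at E10.5 only and 874 (80.9%) at neither. The 4 members fell into all of these classes except E10.5 only. miR-21 was detected at both stages, miR-143 and miR-152 at E11.5 only, and miR-145 at neither. Detected members thus numbered 1 of 4 on the E10.5 array and 3 of 4 on the E11.5 array. Of all 1080 miRNAs, 144 were detected on the E10.5 array and 199 on the E11.5 array. These counts were the same under every detection rule tried. Among probes detected at both stages the E11.5 array was brighter. The 75th percentile of their intensity was 482 there and 194 at E10.5, a ratio of 2.49. Negative-control spots did not rise with it, with means of 7.87 at E10.5 and 5.88 at E11.5. Scaled values are divided by that percentile and describe a miRNA relative to the other detected miRNAs. In RNA from whole tissue, fewer cells of a type and less RNA per cell cannot be told apart.

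miR-21 was clearly above background on both arrays. The 20-base probe had a mean intensity of 189 ± 12.3 (SD over 20 spots) at E10.5 and 484 ± 14.6 (18 spots) at E11.5. Its spots ran from 169 to 207 at E10.5, with a median of 190.2, and from 465 to 518 at E11.5, with a median of 481. The 19-base probe gave 68.4 ± 5.38 (16 spots, from 57.6 to 75.7) and then 176 ± 10.4 (20 spots, from 163 to 201). On both probes every E11.5 spot was brighter than every E10.5 spot, before scaling. How many of all probes on the array did so was not counted, here or for the other members. All 36 spots used on the E10.5 array and all 38 on the E11.5 array were well above background.

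**Figure D1:**
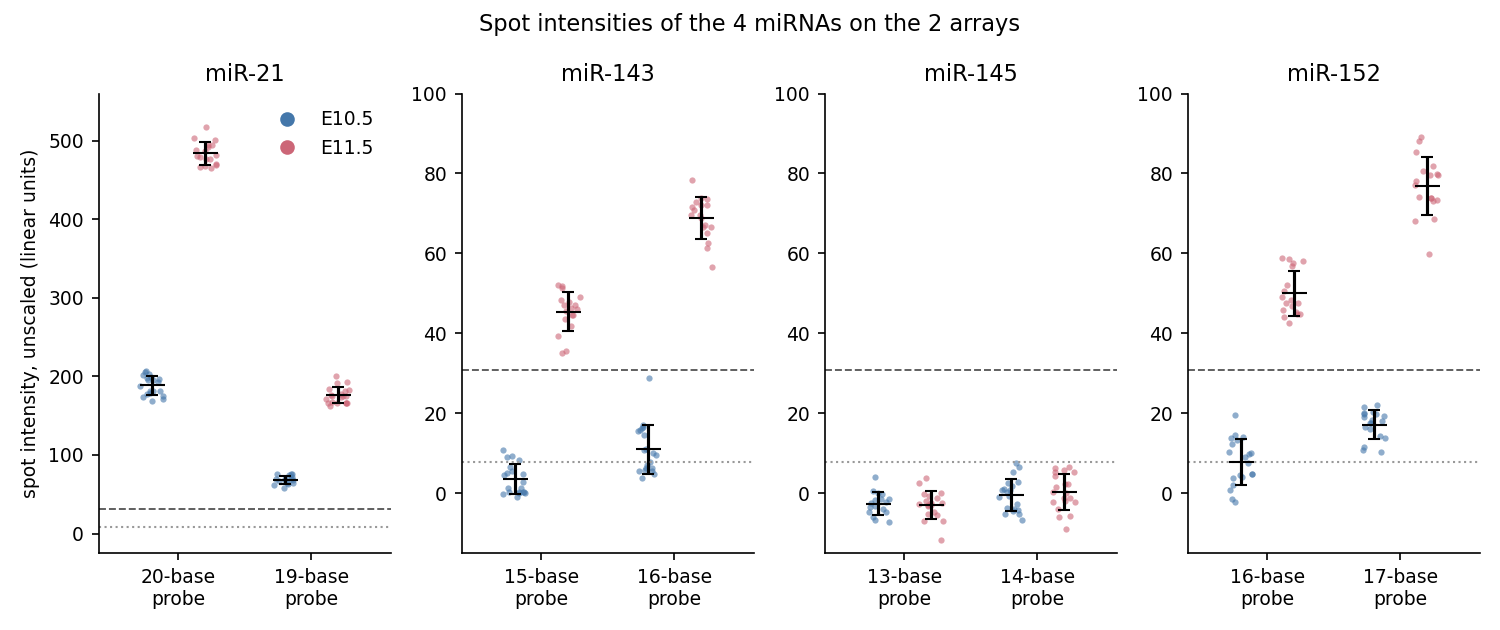
Unscaled spot intensity (linear units) of each probe of the 4 miRNAs, outlier spots left out; points are spots, and bars are the mean and SD over spots of 1 array. The dashed line is the lowest detected probe at E10.5 (30.9) and the dotted line the mean of the E10.5 negative controls (7.87). The miR-21 panel has a wider axis, and all E11.5 spots of miR-143 and miR-152 lie above the dashed line while those of miR-145 lie below it.

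Unscaled, miR-21 was 2.57-fold brighter at E11.5, a log2 difference of 1.36. This size was near that of the 137 miRNAs measured at both stages. Their unscaled median was 1.24, and 88 of them (64.2%) were at least 2-fold brighter at E11.5. After scaling, the difference of miR-21 was 0.05 ± 0.021 on the log2 scale (SE over spots), which is 1.03-fold. For comparison, 5 of 137 miRNAs (3.65%) were at least 2-fold higher after scaling and 19 (13.9%) at least 2-fold lower. miR-21 was in neither group. It ranked 61 of 137 from the highest difference and lay 0.12 above the median of all, which was -0.07.

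The paired probes of miR-21 gave almost the same difference, 0.046 for the 20-base probe and 0.048 for the 19-base one. This gap of 0.0020 can be set against the 80 miRNAs with more than 1 probe measured at both stages, whose probes differed by a median of 0.060 and by up to 1.08. Only 2 of the 80 had probes that lay closer together. The gap was smaller than the SE over spots of the miR-21 difference (0.021), so this closeness is not a measure of precision. The agreement describes the reading of each pool and carries nothing on the spread between pools.

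**Figure D2:**
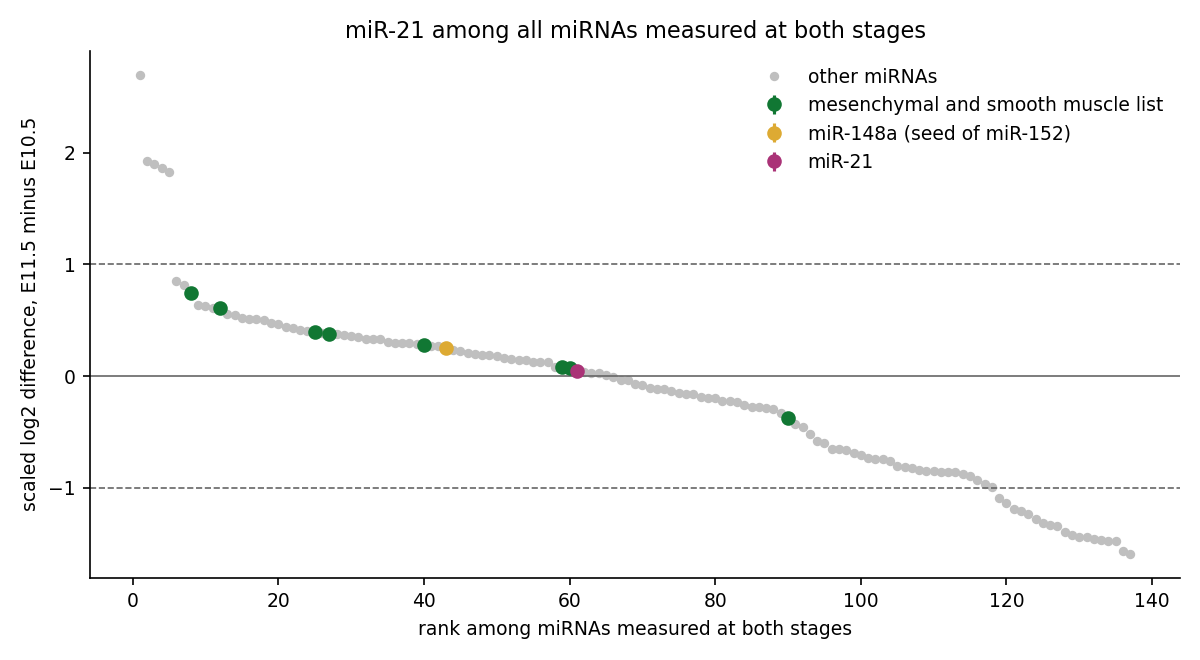
Scaled log2 difference (E11.5 minus E10.5) of the 137 miRNAs measured at both stages, ordered from highest to lowest; bars on the coloured points are SEs over spots, mostly smaller than the symbols, and dashed lines mark 2-fold. miR-21 (0.05, rank 61) lies near 0, beside miR-199a-3p and miR-214.

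The sign of the miR-21 difference depended on the processing. Of 13 alternatives, 9 put it above 0 and 4 below, from -0.11 with normexp background correction to 1.36 with no scaling. It lay above the median of all measured miRNAs in 12 of the 13, by 0.0061 to 0.19. Settings that change only the scaling factor move all miRNAs alike and could not change this place. These are no scaling, every miRNA probe in the percentile, the median and control probes. The share of other miRNAs below miR-21 ran from 47.0% with the deposited value table to 66.2% with normexp. With the authors' deposited value table it lay 0.068 below that median. In that table miR-21 stood at 138 at E10.5 and 128 at E11.5.

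**Figure D3:**
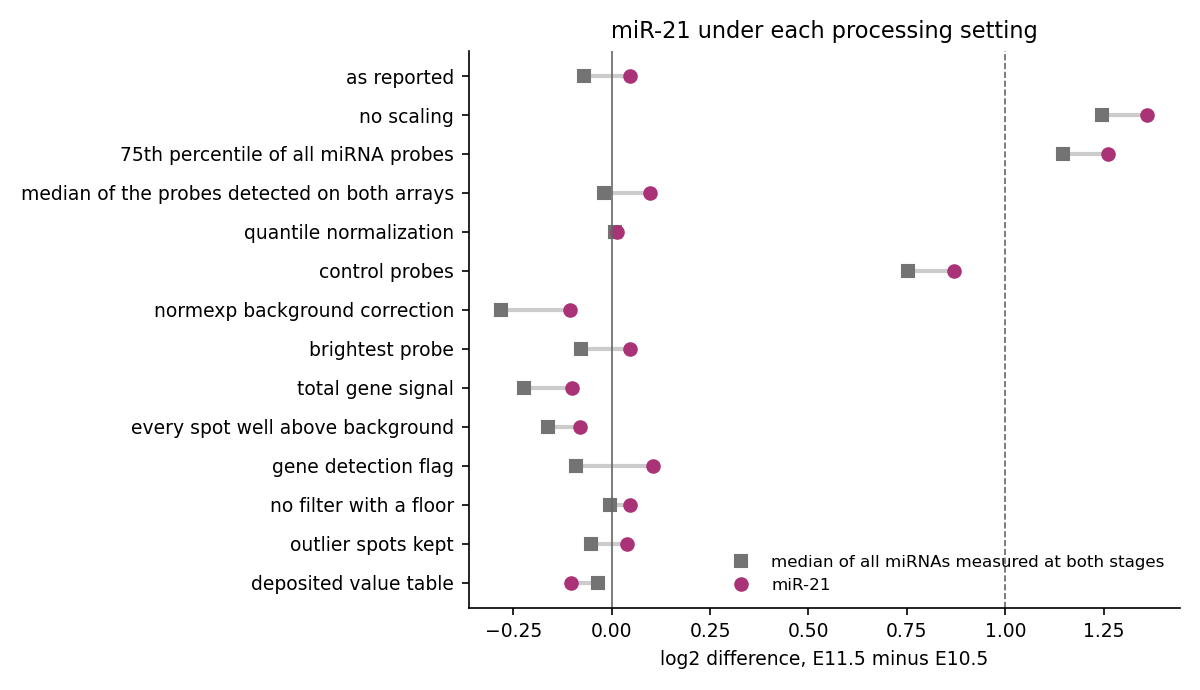
Log2 difference of miR-21 (circles) and the median over all miRNAs measured at both stages (squares) under each processing setting, with a solid line at 0 and a dashed line at 2-fold. Settings that change only the scaling factor move the pair together by construction. The circle is right of the square in all settings but the deposited value table.

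The 3 miRNAs with the scaled difference nearest to that of miR-21, among 137 and over the 2 arrays, were miR-483 (0.039 ± 0.071), miR-26b (0.030 ± 0.024) and miR-27a (0.027 ± 0.030). With 1 value per stage, likeness here is closeness of that single difference, and all 3 differ from miR-21 by no more than their own spot SEs.

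Unscaled, miR-143 went from background to a low but clear signal. At E10.5 its 15-base probe averaged 3.48 ± 3.75 (20 spots, from -0.901 to 10.9, median 2.09) and its 16-base probe 11.0 ± 6.17 (20 spots, from 3.72 to 28.8, median 9.81). At E11.5 the same probes averaged 45.4 ± 4.95 (18 spots, from 35.1 to 52.2, median 46.2) and 68.9 ± 5.21 (18 spots, from 56.6 to 78.4, median 69.7). Before scaling, the stages did not overlap on either probe, and the share of all probes that did so was not counted. The array ratio of 2.49 was taken over probes detected at both stages, which those of miR-143 were not. Of the spots used, 0 of 40 on the E10.5 array and 36 of 36 on the E11.5 array were well above background.

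The background itself can be read from the negative controls, 1000 spots per array, which averaged 7.87 ± 6.16 (SD) at E10.5 and 5.88 ± 5.60 at E11.5. At E10.5, 792 of these spots were at or above the mean of the 15-base miR-143 probe and 279 at or above that of the 16-base probe. At E11.5 the counts were 1 and 0. Thus the E10.5 readings of miR-143 lay within the negative controls and its E11.5 readings at or beyond their upper end.

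miR-152 behaved in much the same way. Its 16-base probe went from 7.81 ± 5.84 (20 spots, from -2.18 to 19.6, median 8.32) to 49.98 ± 5.60 (18 spots, from 42.5 to 58.9, median 47.9). Its 17-base probe went from 17.2 ± 3.56 (19 spots, from 10.3 to 22.2, median 18.0) to 76.9 ± 7.29 (18 spots, from 59.8 to 89.2, median 77.7). Here too the stages did not overlap on either probe before scaling, and the share of all probes that did so was not counted. Of the spots used, 0 of 39 on the E10.5 array and 36 of 36 on the E11.5 array were well above background. At E10.5, 504 negative-control spots were at or above the mean of the shorter probe and 52 at or above that of the longer. At E11.5 there were 0 for both.

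A miRNA under the detection limit at 1 stage has only a lower bound on its fold. The bound is the detected mean over the higher of the lowest detected probe on the other array and the probe's own reading there. The lowest detected probe at E10.5 had an intensity of 30.9. Without scaling, miR-143 was at least 1.81-fold and miR-152 at least 2.01-fold brighter at E11.5. Divided by the array ratio of 2.49, the E11.5 means were 18.3 and 27.7 for miR-143 and 20.1 and 30.9 for miR-152. The largest of these was at the lowest detected E10.5 intensity, and the others were under it. Among the 62 miRNAs detected at E11.5 only, 60 had an unscaled bound above 1-fold and 13 (21.0%) one of at least 2-fold. After scaling, 9 of the 62 kept a bound above 1-fold. Neither miR-143 nor miR-152 was among those 9, so no relative fold is given for either. As scaled, 0 of 4 members passed 2-fold, but only miR-21 had a difference to read against that limit. The count depended on the processing. With the total gene signal the log2 bounds of miR-143 and miR-152 were 1.52 and 0.88, which put 1 member past 2-fold. With the deposited table they were 1.82 and 1.95, which put 2 past it.

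miR-145 gave no signal above background on either array. Its 13-base probe averaged -2.62 ± 2.86 (17 spots, from -7.31 to 4.05) at E10.5 and -2.92 ± 3.53 (19 spots, from -11.7 to 3.70) at E11.5. Its 14-base probe averaged -0.421 ± 4.10 (20 spots, from -6.65 to 7.64) and 0.337 ± 4.47 (20 spots, from -8.93 to 6.43). The stages overlapped on both probes. In all, 0 of 37 spots on the E10.5 array and 0 of 39 on the E11.5 array were well above background, and at least 864 of the 1000 negative-control spots on each array were at or above each mean.

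miR-145 thus stayed at background at E11.5 while miR-143, its neighbour within 10 kb and within the same host gene, was detected. Intensities of different probes are not on 1 scale, so the levels of the pair were not compared. The miR-145 probes were shorter than those of the other members. Over the whole array, 581 probes had 13 or 14 bases, of which 4.82% were detected at E11.5, against 15.6% of the 1951 probes longer than 14 bases. The part of probe length in the absence of signal was not tested.

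The passenger strands, the arms that are usually degraded, were at background for all 4 members. The 12 probes of miR-21*, miR-143*, miR-145* and miR-152* had mean intensities from -9.95 to 5.45 at E10.5 and from -4.26 to 4.17 at E11.5. None of their spots used (0) was well above background on either array.

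Of the 2 other miRNAs with the miR-152 seed, miR-148a was detected at both stages. Its 20-base probe went from 51.7 ± 6.87 (19 spots) to 153 ± 13.3, a scaled log2 difference of 0.25 ± 0.052. Its 19-base probe was under the detection limit at E10.5 (30.8 ± 3.11, with 6 of 17 spots well above background) and reached 82.5 ± 7.28 at E11.5. The difference of miR-148a was -0.19 with normexp, 0.02 with outlier spots kept and 0.05 with the total gene signal. It was 0.24 with the deposited value table and 0.34 with quantile normalization. miR-148b was detected at E11.5 only, like miR-152, through its 19-base probe: 57.5 ± 6.57 against 25.2 ± 5.90 at E10.5. As scaled no bound above 1-fold was left, and the unscaled one was 1.86-fold. Its 18-base probe was not detected on either array (1.28 ± 5.13 and 7.24 ± 3.44). By the scanner software's gene detection flag miR-148b was measured at both stages, with a log2 difference of 0.59. The deposited table, which lists miR-148b at 11.7 at both stages, gives miR-152 as 25.2 at E11.5 and the placeholder 0.1 at E10.5. As reported, 1 of the 3 miRNAs with this seed was measured at both stages and all 3 were detected at E11.5.

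In a wider list of miRNAs linked to mesenchyme and smooth muscle, 13 of 14 were on the array, and 9 were measured at both stages. Of these 9, 8 were higher after scaling, with a median log2 difference of 0.28. Of all 137 measured miRNAs, 65 were higher, and the median of all was -0.07. The list was chosen with earlier results of these data known, so its counts describe it and are no test. None (0) reached 2-fold. Apart from miR-21, the values ran from -0.38 ± 0.048 for miR-22 to 0.74 ± 0.019 for miR-23b. Within the list, miR-199a-3p (0.08 ± 0.0078) and miR-214 (0.07 ± 0.012) lay closest to miR-21, and miR-199a-5p was at 0.28 ± 0.020. miR-24 (0.38) and miR-100 (0.40) were in between, and miR-27b was at 0.61. Of the 9, 6 were above 0 with normexp or with the deposited table, and 5 with the total gene signal or where every spot of a probe had to be well above background. miR-143, miR-152 and miR-214* were the members of this list detected at E11.5 only, and miR-145 was the single one on the array that was detected at neither stage.

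Markers of other cell types moved over the same interval. The 3 mesenchymal markers were detected at both stages, with a summed unscaled intensity of 5005 at E10.5 and 13383 at E11.5. The array ratio over probes detected at both stages was 2.49. For striated muscle, 0 of 7 were detected on the earlier array and 4 on the later, with sums of 10.2 and 458, and miR-208a-3p, miR-208b and miR-499 stayed at background. Of 7 epithelial markers 4 and then 5 were detected (524 and 573), of 2 endothelial 1 and 1 (275 and 387), and of 2 erythroid 1 and 1 (70.1 and 116). Of 4 leukocyte markers 0 and 1 were detected (28.9 and 35.5), and of 5 neural 1 and 2 (39.9 and 170). Relative to the other detected miRNAs the lists moved in both directions. After scaling, all 4 epithelial markers measured at both stages were lower, with a median log2 difference of -1.37, and 3 of them by at least 2-fold. The endothelial marker miR-126-3p was at -0.81, the erythroid marker miR-451 at -0.60 and the neural marker miR-218 at 0.50, while the median of the 3 mesenchymal markers was 0.08. Their part in the results for miR-21, miR-143 and miR-152 was not tested.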

How the data were processed

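Per the labels' protocols, total RNA was labelled with Cy3 for 1-colour Agilent miRNA arrays, 1 per stage. Spot intensity in the deposited scanner files had its background subtracted by Feature Extraction 10.7.1.1 (probe positions on mm9), per the file headers. The submitters' processing notes name version 9.5.1.1. Intensity per miRNA is in the deposited value table, and its normalization is not stated in the labels. Its lowest entry, 0.1, was read as a placeholder for no signal.

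Outlier spots (2058 of 43200 miRNA spots at E10.5, 2118 at E11.5; 8 and 11 of the members' 160) were left out, and the others averaged per probe. No miRNA spot (0) was saturated. Arrays were divided by the 75th percentile over probes detected on both. A difference is the log2 ratio of E11.5 to E10.5, averaged over such probes. The number of arrays limits the precision, and nothing was tested. Named are the members, their passenger strands, neighbours within 10 kb, the 3 nearest differences and the lists. Also named are miRNAs found in RefSeq with the seed of miR-21 or miR-152. The members and lists were chosen with earlier results of these data known. Scaling and the differences of miRNAs measured at both stages were checked on simulated probe means. Spot averaging, outlier removal, the background flag and the lower bounds were not checked in this way. Alternatives covered scaling, background correction, probe summary, detection, filters, outlier spots and the value table. Tools were Python 3.11.15, numpy 2.4.6, pandas 2.3.3, matplotlib 3.10.9, R 4.3.3 and limma 3.58.1 (normexp with an offset of 50).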

Additional observations from a re-analysis of the deposited data

How the results depend on the processing

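No paired analysis was possible because each stage has 1 array, and for the same reason no replicate could be left out. Log2 differences of miR-21 that moved by more than its spot SD (0.12) from 0.05 were 1.36 unscaled, 1.26 with every miRNA probe in the percentile, 0.87 when scaled by control probes, -0.11 with normexp, -0.10 with the total gene signal, -0.079 where every spot had to be well above background, and -0.10 in the value table. The log2 lower bounds of miR-143 and miR-152, which were at the limit of 0 as reported, were 0.86 and 1.005 unscaled, 0.76 and 0.91 with every miRNA probe in the percentile, 0.36 and 0.51 when scaled by control probes, 1.52 and 0.88 with the total gene signal, and 1.82 and 1.95 with the value table. The last 2 settings use other floors, the lowest total signal of a detected miRNA and the lowest entry above the placeholder. The number of members at least 2-fold apart, 0 as reported, was 2 unscaled, 1 with every miRNA probe in the percentile, 1 with the total gene signal and 2 with the value table. The alternatives not named here for a result left it within its limit. miR-145 had no value under any alternative, and miR-143 none with a floor in place of the filter, where both stages lay at the floor. Between the stages, 20 control probes seen on both arrays rose in intensity by a median of 1.41-fold (log2 from 0.26 to 0.90), less than the miRNA probes. Signal over background limits miR-143 and miR-152 at E10.5 and miR-145 at both stages.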

Other observations

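The positions that the scanner files give for the probe targets of miR-21, on the minus strand, did not match the order of its arms in RefSeq. The files (mm9) place the target of the 5′ arm at 86397589 to 86397607 on chromosome 11 and that of miR-21*, the 3′ arm, at higher positions, from 86397632. In the RefSeq table (GRCm38.p6) the 3′ arm has the lower positions for this miRNA. For miR-152, on the plus strand, both sources place the 5′ arm lower. Other miRNAs were not compared in this way. The probe sequences of miR-21 and miR-152 are complementary to the RefSeq mature sequences in full, so the names and intensities above do not rest on these positions.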
